A study of Mus musculus with 6 samples.

Results

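The Tdpoz cluster is a run of related genes on mouse chromosome 3, described here in 4-cell embryos that had developed with or without an early block of transcription. Its 9 members are Tdpoz1, Tdpoz2, Tdpoz3, Tdpoz4, Tdpoz5, Gm9117, Gm9125, Gm10696 and Gm5286, found by symbol among the 55335 genes of each library. The members were chosen by name with their values in these libraries known, so the difference between the groups is given for them as a description and no test is read from it. RNA was measured by Smart-Seq2, an amplification of polyadenylated RNA, primed with oligo-dT, that suits a few cells. There were 3 control libraries (Con) and 3 libraries of embryos treated with DRB, a nucleoside analogue that blocks elongation by RNA polymerase II. DRB embryos had 20 µM of the inhibitor in KSOM medium from 6 h after fertilization for 20 h, then grew in medium free of it for 26 h, and both groups were collected with 4 cells. Whether Con embryos received a vehicle, the mouse strain, the culture times of Con and the number of embryos in a library were not stated. Nothing in the labels says whether replicates came from separate collections, so p-values measure the spread between these libraries only.

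TDPOZ proteins join a TRAF domain (called MATH), which binds substrates, to a BTB/POZ domain, which binds the scaffold CUL3. They are relatives of SPOP, the substrate adaptor of a CUL3 ubiquitin ligase. In the mouse, genes of this family are known for transcripts that appear when the embryonic genome is activated at the 2-cell stage. Coding sequences of the members were 1020 to 1110 bases long and 66.5 to 70.1% identical to that of Spop in end-to-end alignments. Among members, the coding sequences of Gm9117 and Gm9125 had 0 mismatches over 1095 bases, and that of Tdpoz1 was 98.4% identical to both. Gm10696 and Gm5286 were 90.5% identical to each other, and the members farthest apart, Tdpoz4 and Tdpoz5, 72.4%. RefSeq names Gm9125 Tdpoz9, Gm10696 Spopfm2 and Gm5286 Spopfm3, and lists Gm9117 and Gm5286 as pseudogenes, whereas GENCODE M21 lists all 9 as protein-coding.

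On GRCm38 (mm10) the members lay between chr3:93651542 and chr3:94199802, a span of 548.3 kb, interleaved with further copies of the family. Tdpoz2 (chr3:93651542-93652686, minus strand), Tdpoz4 (chr3:93796398-93797510, plus strand), Tdpoz3 (chr3:93826020-93827117, plus strand) and Tdpoz5 (chr3:93960292-93961314, minus strand) were annotated with 1 exon. The other 5 had a model with 2 exons: Tdpoz1 (chr3:93669333-93676310), Gm9117 (chr3:93936633-93943543), Gm9125 (chr3:94047981-94054885) and Gm10696 (chr3:94174412-94178193) on the minus strand and Gm5286 (chr3:94196714-94199802) on the plus strand. Their first exons held 116 to 122 bases, and the intron after it 4649 bases in Tdpoz1, 4586 in Gm9117, 4580 in Gm9125, 1535 in Gm10696 and 1496 in Gm5286. The 1-exon models hold little but coding sequence, with 65 other bases in Tdpoz2 and 3 in each of Tdpoz3, Tdpoz4 and Tdpoz5, against 522 to 1230 in the 2-exon models.

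Sequence before the annotated start is shown for both kinds of model. The models of Tdpoz4 and Tdpoz5 start at most 3 bases before the coding sequence, those of 2-exon members at a separate first exon. The 2 sets are thus not the same kind of position, and a difference between them can follow from the annotation alone. RefSeq promoter windows on GRCm38.p6, from 250 bases before to 50 after the start, matched 5 of the 9 members. The first set is the 120 bases before the GENCODE start of the 3 members with a 2-exon model and a window, on the minus strand, 5′ to 3′, with the letters TATATAA and TAATCC in capitals. Tdpoz1 is at chr3:93676311-93676430, Gm9125 at chr3:94054886-94055005 and Gm10696 at chr3:94178194-94178313.
Tdpoz1: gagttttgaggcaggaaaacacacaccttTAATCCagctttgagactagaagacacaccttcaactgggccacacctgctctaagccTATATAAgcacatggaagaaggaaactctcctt
Gm9125: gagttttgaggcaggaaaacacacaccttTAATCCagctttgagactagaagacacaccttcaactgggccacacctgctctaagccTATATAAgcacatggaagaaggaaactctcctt
Gm10696: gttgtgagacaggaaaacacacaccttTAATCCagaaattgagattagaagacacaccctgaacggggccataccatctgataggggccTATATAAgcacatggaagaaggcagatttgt
The pieces of Tdpoz1 and Gm9125 were the same over all 120 bases, although the genes lie far apart in the run. TATATAA began 33 bases before the start in both and 31 bases before it in Gm10696, and TAATCC, a core bound by bicoid-class homeodomain proteins, began 91, 91 and 93 bases before it. RefSeq places the start of Tdpoz1 27 bases further downstream than GENCODE, so that from the RefSeq start, which sets the promoter window, TATATAA began at position -60 and TAATCC at -118. On either strand, TATATAA was in 3.24% of the 32851 promoter windows of all genes, TAATCC in 7.06% and both in 0.289%. These letters were also in a window of Gm4858, a further copy of the family (RefSeq Tdpoz8), at 29 and 91 bases before its start.

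The second set is the 120 bases before the annotated start of the 2 members with a 1-exon model and a window, with TTTTCAG in capitals. Tdpoz4 is at chr3:93796278-93796397 on the plus strand and Tdpoz5 at chr3:93961315-93961434 on the minus strand.
Tdpoz4: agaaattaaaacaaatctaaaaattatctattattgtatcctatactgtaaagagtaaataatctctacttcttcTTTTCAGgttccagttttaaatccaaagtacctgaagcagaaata
Tdpoz5: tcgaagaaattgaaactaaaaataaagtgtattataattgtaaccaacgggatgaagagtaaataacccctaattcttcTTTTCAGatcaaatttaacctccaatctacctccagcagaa
Neither TATATAA nor TAATCC was in these windows, which says only that the letters are not there. The stretch TTTTCAG has the form of the end of an intron and was in 6.5% of all windows on either strand. The base after it was 38 bases before the start in Tdpoz4 and 34 before it in Tdpoz5. The copy Gm4858 has a 3-exon model, and a RefSeq window of it was 91.9% identical to that of Tdpoz4. There the base after TTTTCAG, at 93073486, was the annotated first base of the second exon. The deposited values do not show where transcription of Tdpoz4 or Tdpoz5 began.

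The deposited values are FPKM, fragments scaled to transcript length and library total, so levels of different genes can be set side by side per length. Most low values were near whole multiples of 1 fragment, from which 22700000 to 25400000 fragments per library were estimated, with 76.4 to 83.5% of low values within 0.15 of a whole fragment. Cleavage embryo markers were present, with 12 of 12 tested. Of them 0 were called (limma adjusted p below 0.05), where 2.48% of all tested genes were. Dppa3, a maternal factor, led at 13434 to 24780 FPKM. The other markers were far lower, from 0.50 FPKM in Ooep to 42.06 FPKM in Zp3. In Zp3 and Padi6 all DRB libraries were below all Con libraries, as in 13.9% of all tested genes. In Khdc3 they were all above, as in 9.85%. Of 10 cumulus cell markers 4 were at 0 in every library, Has2, Ptx3, Fshr and Cyp11a1, and only Amhr2 exceeded 1 FPKM. Summed sperm markers were 8.97 to 19.1 FPKM in Con and 7.30 to 17.4 in DRB, nearly all Ldhc, with Tnp2 and Smcp at 0. The 7 blood cell markers summed to 74.4 to 115.8 FPKM in Con and 47.1 to 87.5 in DRB, mostly Hba-a1 and Hba-a2, and their part in the results was not tested.

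Summed over the 9 members, the cluster stood at 83.81, 38.23 and 36.97 FPKM in Con replicates 1, 2 and 3. In DRB it stood at 353.76, 335.57 and 216.11 FPKM. All 3 DRB libraries were above all 3 Con libraries, and Con replicate 1 was the highest control. The means were 53.0 ± 26.7 and 301.8 ± 74.8 FPKM (SD, n = 3 per group), a ratio of 5.69, or 2.51 on the log2 scale. With the genes named Tdpoz alone the sums were 36.3 ± 22.3 and 78.9 ± 22.4 FPKM, a log2 ratio of 1.12, so much of the difference in the sum was in the models with Gm names. In a bulk library, more cells with a transcript and more RNA per cell cannot be told apart.

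**Figure D1:**
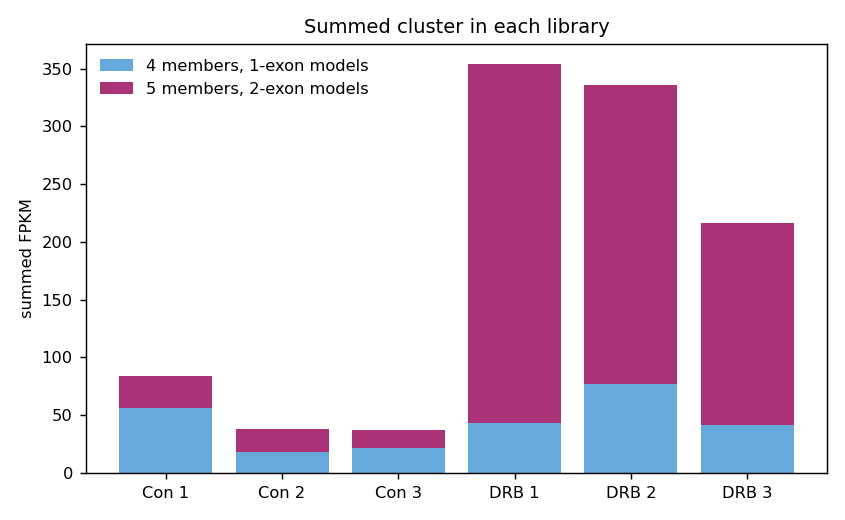
Summed FPKM of the cluster in each of the 6 libraries, as bars split into the 5 members with 2-exon models and the 4 with 1-exon models. The upper part grew from 15.4 to 27.8 FPKM in Con to 174.4 to 310.8 in DRB. In the lower part the groups overlapped, through Con replicate 1 alone.

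The split by exon number was made after the values were seen. The 5 members with a 2-exon model summed to 27.82, 20.49 and 15.38 FPKM in Con and 310.76, 258.44 and 174.37 FPKM in DRB, a ratio of means of 11.7. The 4 members with a 1-exon model summed to 55.99, 17.74 and 21.59 FPKM in Con and 43.00, 77.13 and 41.74 FPKM in DRB, a ratio of 1.70. Con replicate 1 exceeded DRB replicates 1 and 3 in the second sum, so its groups overlapped. Con replicates 2 and 3 were below all DRB libraries in that sum. Con replicate 1 also had the most genes above 0 FPKM, 22102, against 18485 to 19895 in the other libraries. Whether that bears on the overlap was not tested. As a share of the cluster, the 2-exon members made up 33.2, 53.6 and 41.6% in Con and 87.8, 77.0 and 80.7% in DRB. By mean share, the leading copy was Tdpoz5 in Con, at 34.0 ± 8.6% of the sum, and Gm10696 in DRB, at 25.9 ± 1.0% (SD, n = 3). In DRB replicate 1 the lead was with Gm9117, at 32.0% against 26.5% for Gm10696.

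Gm10696, a SPOP-like model, had the highest mean of the members in DRB and over all 6 libraries, but not in Con, where Tdpoz5 and Tdpoz4 were higher. Its values were 6.65, 6.34 and 4.42 FPKM in Con and 93.74, 82.95 and 57.39 FPKM in DRB. Every DRB library was far above every Con library. The means were 5.80 ± 1.21 and 78.0 ± 18.7 FPKM, a ratio of 13.4, and the fitted difference in log2(FPKM + 1), DRB minus Con, was 3.53 (SE 0.34). Gm5286, its nearest relative among the members, stood at 6.19, 2.35 and 2.51 FPKM in Con and 22.54, 44.32 and 14.09 FPKM in DRB. Its groups did not overlap either, but the DRB libraries differed widely among themselves, with replicate 2 the highest and replicate 3 the lowest. The fitted difference was 2.52 (SE 0.49).

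Gm9117, with the same coding sequence as Gm9125, stood at 3.95, 4.01 and 4.65 FPKM in Con and 113.14, 57.10 and 39.69 FPKM in DRB. The 3 Con libraries were close together, while DRB replicate 1 was far above DRB replicate 3. Gm9125 itself stood at 4.97, 1.07 and 2.95 FPKM in Con and 59.58, 46.53 and 37.69 FPKM in DRB. Its fitted difference was 3.72 (SE 0.44) and that of Gm9117 was 3.64 (SE 0.41). Tdpoz1, the named gene closest to this pair, stood at 6.06, 6.72 and 0.85 FPKM in Con and 21.76, 27.54 and 25.51 FPKM in DRB. Its DRB libraries were close together and Con replicate 3 was low, and the fitted difference was 2.47 (SE 0.53).

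Tdpoz5 was the most abundant member in Con, at 29.17, 9.57 and 15.58 FPKM, against 28.04, 45.54 and 22.56 FPKM in DRB. Con replicate 1 was above DRB replicates 1 and 3, and the fitted difference was 0.86 (SE 0.43). Tdpoz4 stood at 14.29, 2.74 and 5.55 FPKM in Con and 11.03, 24.98 and 14.05 FPKM in DRB, again with Con replicate 1 among the DRB values, and a difference of 1.22 (SE 0.53). Tdpoz2 stood at 11.97, 2.51 and 0.46 FPKM in Con and 3.93, 6.56 and 3.67 FPKM in DRB. Con replicate 1 was the highest of its 6 libraries, and the difference was 0.46 (SE 0.68), with the sign turned to -0.27 without Con replicate 3. The mean FPKM went the other way, at 4.98 in Con and 4.72 in DRB, so the sign for Tdpoz2 also depends on the scale. Tdpoz3 was at 0.56, 2.92 and 0 FPKM in Con and 0, 0.05 and 1.46 FPKM in DRB. It did not reach the filter of 1 FPKM in 3 libraries, and its value of 0.05 in DRB replicate 2 corresponds to about 1 fragment. Apart from Tdpoz3, the values of the members rest on an estimated 10 to 5727 fragments per library.

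**Figure D2:**
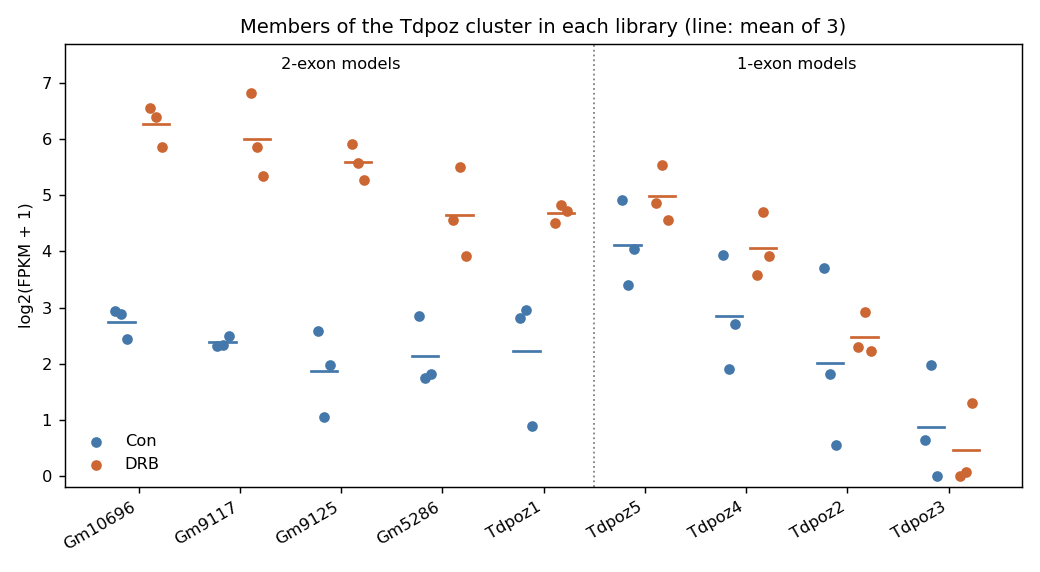
log2(FPKM + 1) of each member in each library, with Con and DRB points side by side and a line at the mean of 3. The 5 members left of the dotted line, with 2-exon models, had no overlap between groups. The 4 on the right, with 1-exon models, overlapped, in Tdpoz2, Tdpoz4 and Tdpoz5 through Con replicate 1 alone.

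Fitted with limma over all 11893 genes that passed the filter, 295 genes had a Benjamini-Hochberg adjusted p below 0.05, 2.48% of those tested, and 182 of them, 1.53%, were higher in DRB. Of the 9 members 8 were tested and 5 were among those higher, Gm10696, Gm9117, Gm9125, Gm5286 and Tdpoz1, a count that follows from how the members were chosen. Those were the members with a 2-exon model, and also the ones whose DRB libraries all lay above all Con libraries, as did 9.85% of the tested genes. Gm10696, Gm9117 and Gm9125 were called in each of the 6 fits that left out a library, Tdpoz1 and Gm5286 in 2 of them each. Con replicate 3, DRB replicate 1 and DRB replicate 2 were the libraries without which the members called numbered 3. With no filter 6 genes were called in all, of which Gm10696 was the only member.

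How far reads can be given to 1 copy was measured from the transcript sequences. The read length was 150 bases, and each model was cut into all windows of that length. For Tdpoz4, Tdpoz2, Tdpoz1 and Gm10696, 93.5, 91.2, 87.6 and 81.3% of windows were in no other gene of the annotation. The share was 66.6% for Tdpoz3 and 44.5% for Gm5286, which had 49.2% of its windows in common with Gm9124, an unprocessed pseudogene. Gm9117 and Gm9125 kept 19.9 and 20.7%, with 79.3% shared between them, so their separate values depend on how the authors' tool divided shared reads. Gm9124 was low, at 1.21, 0 and 0 FPKM in Con and 0.13, 6.67 and 0.48 FPKM in DRB.

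Tdpoz5 had no window of its own. Its transcript is identical to that of Gm10697 (RefSeq Tdpoz7), and the 2 genes had equal FPKM in 6 of 6 libraries. Whether reads were divided equally or counted for both cannot be told apart from the values, so the level of the pair may be that printed for Tdpoz5 or the sum of both. Copies that are mostly unique stood on both sides of the split: Tdpoz1 and Gm10696 with no overlap between groups, Tdpoz2 and Tdpoz4 with overlap through Con replicate 1. Whether reads shared by copies bear on the split was not tested.

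**Figure D3:**
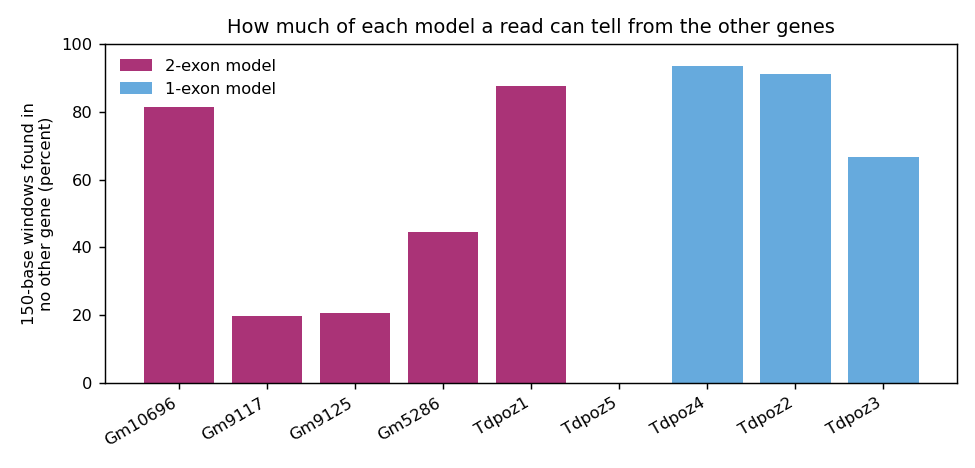
Percent of 150-base windows of each member's model found in no other annotated gene, with bars coloured by exon number. Tdpoz5 is at 0, Gm9117 and Gm9125 are near 20, and Tdpoz1, Gm10696, Tdpoz2 and Tdpoz4 are above 80.

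A further 16 annotated copies of the family lay among or near the members on chromosome 3. Of these 14 were tested and 0 were called by limma, with 7 at an unadjusted p below 0.05, a level that 18.1% of all tested genes reached. A p that misses the threshold does not show that a copy did not differ. Their median log2 difference was 1.37, beside -0.09 over all tested genes, and 13 of the 14 were above 0. Several copies were nearly identical to called members over the aligned bases, such as Gm5852 at 99.2% to Gm10696 and Gm9113 at 98.4% to Gm5286. Others were closest to members not called. How much of the copies' signal was reads shared with members was not tested. In 4 copies, beside the 9.85% of tested genes given above, all DRB libraries were above all Con libraries. Gm4858, with the TATATAA stretch shown above, was one, at 2.15, 0.09 and 1.58 FPKM in Con and 5.49, 12.12 and 4.62 FPKM in DRB (limma adjusted p = 0.086). The others were the pseudogenes Gm9113, Gm5542 and Gm9131, each annotated with 1 exon. The 1-exon models beyond the members thus did not all have overlapping groups. Without Con replicate 1, Gm9113 was called higher (log2 difference 2.50, limma adjusted p = 0.042), as was no other copy in any fit that left out a library. Gm37596, a 1-exon coding copy 97.7% identical to Tdpoz5 in its coding sequence, had no such difference, at 30.66, 17.21 and 9.30 FPKM in Con and 18.85, 21.56 and 11.29 FPKM in DRB (difference -0.04, SE 0.45). Gm5773, which is 97.0% identical to Tdpoz2, stood at 4.84, 0.91 and 1.60 FPKM in Con and 4.54, 4.25 and 3.66 FPKM in DRB. Gm4778, the nearest coding gene beyond the Gm5286 end and a copy with a 2-exon model, stood at 3.80, 0.32 and 0 FPKM in Con and 2.86, 11.77 and 3.57 FPKM in DRB. Its groups overlapped, through Con replicate 1 alone, so the 2-exon models beyond the members did not all separate the groups.

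Genes that are not copies were counted within 500 kb of the cluster. In the files were 82 neighbours, of which 67 are no copy of the family and 13 of those were tested. Oaz3, an antizyme that is known for expression in testis, was the 1 gene called, where 2.48% of all tested genes were called. It was lower in DRB, at 10.54, 17.41 and 6.38 FPKM in Con and 1.39, 0.76 and 0.91 FPKM in DRB (log2 difference -2.54, SE 0.45, limma adjusted p = 0.0177). That call was lost without Con replicate 1, Con replicate 2 or DRB replicate 1. The 13 had a median difference of 0.19. The nearest tested gene on the Tdpoz2 side was Gm38207, a model of unsettled type, named after its values were seen. It was low and not called, at 0.35, 0.47 and 0.19 FPKM in Con and 2.92, 1.69 and 1.68 FPKM in DRB, with no overlap (log2 difference 1.19, SE 0.38, limma adjusted p = 0.126). S100a10, a calcium-binding-family protein and the nearest tested coding gene on the Tdpoz2 side, was at 12.40, 17.42 and 12.59 FPKM in Con and 13.55, 17.27 and 25.97 FPKM in DRB. On the Gm5286 side, past the last copy, Them4, a thioesterase, was at 13.67, 9.69 and 7.99 FPKM in Con and 11.31, 21.88 and 25.73 FPKM in DRB. S100a10 and Them4 had overlapping groups. Tchh, a structural protein of hair follicles, was called higher only with median-of-ratios scaling, with 2.60, 1.45 and 0.88 FPKM in Con and 9.52, 7.27 and 6.17 FPKM in DRB (limma adjusted p = 0.0594 as deposited).

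**Figure D4:**
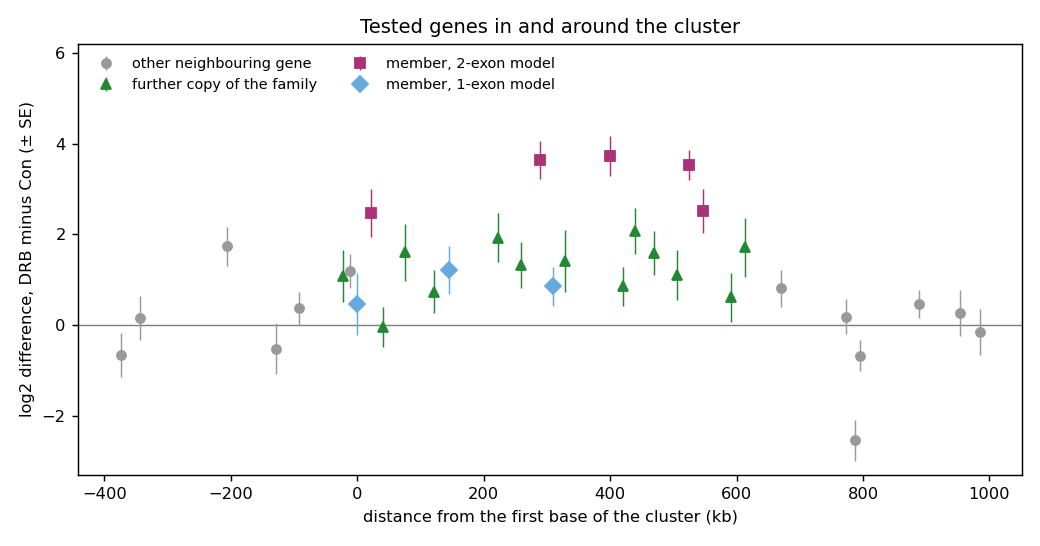
Fitted log2 difference, DRB minus Con, with its SE, for each tested gene against its distance in kb from the first base of the cluster. The 2-exon members lie between 2.47 and 3.72, and the neighbours that are no copy had a median of 0.19. The 1-exon members lie between 0.46 and 1.22, without Tdpoz3, which was not tested.

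Other genes known from the 2-cell stage were counted from a list that leaves the cluster out. Of 39 in the files 27 were tested, 8 were higher in DRB and 0 lower by limma, and the median difference was 1.13. Over all tested genes 1.53% were called higher, and the list was drawn up with earlier results known. In 13 of the 27 all DRB libraries were above all Con libraries, as in 9.85% of all tested genes. The tested genes of the list with overlapping groups had differences from -0.17 in Sp110 to 3.52 in Gm4340. Among them were Zscan4c, Zscan4d, Zscan4f, Tcstv1, Ubtfl1 and Tcstv3, at 0.41, 0.36, 0.10, 0.77, 0.00 and 2.07. These genes were named after their values were seen. The 4 called genes with the largest differences follow. Gm2016, a member of a multi-copy family, stood at 13.47, 5.61 and 13.29 FPKM in Con and 124.83, 290.09 and 58.20 FPKM in DRB. B020004J07Rik stood at 2.32, 4.07 and 5.27 FPKM in Con and 86.93, 45.81 and 33.43 FPKM in DRB. Pramef25, of the PRAME family, stood at 0.81, 0.78 and 1.01 FPKM in Con and 17.05, 51.04 and 7.75 FPKM in DRB. Gm5662 stood at 21.31, 15.83 and 16.09 FPKM in Con and 164.10, 545.18 and 81.97 FPKM in DRB. In each of these 4 the DRB libraries were all above the Con libraries. DRB replicate 2 was the highest library for Gm2016, Pramef25 and Gm5662, and DRB replicate 1 for B020004J07Rik. Among the members, the highest DRB library was replicate 1 for Gm9117, Gm9125 and Gm10696, replicate 2 for Tdpoz1, Gm5286, Tdpoz2, Tdpoz4 and Tdpoz5, and replicate 3 for Tdpoz3.

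Genes of the CUL3 ligase, called ligase partners here, were then counted. The list also holds Spop and Spopl themselves and other BTB-domain genes, such as Keap1, Klhl7 and Kctd5. Of 36 genes 33 were tested, with a median difference of -0.32, and 0 were called by limma, where 2.48% of all tested genes were. Before adjustment, 5 had a limma p below 0.05 (1 higher and 4 lower), beside 18.1% of all tested genes. In 2 of the 33, Cul3 and Klhl7, all DRB libraries were above all Con libraries, as they were in 9.85% of all tested genes. In 7 they were all below, Nedd8, Uba3, Nae1, Cops4, Cops6, Cops7a and Kctd5, as they were in 13.9% of all tested genes. Rbx1, the RING subunit that recruits the E2 enzyme, was at 557.45, 962.41 and 925.68 FPKM in Con and 664.64, 824.33 and 955.68 FPKM in DRB. Nedd8, the modifier that activates cullins, was at 600.34, 651.22 and 581.17 FPKM in Con and 240.21, 421.98 and 565.55 FPKM in DRB, with no overlap (difference -0.66, limma adjusted p = 0.299). The next 2 genes, the scaffold and the best-known adaptor, were named after their values were seen. Cul3, the scaffold, was at 178.87, 314.83 and 217.74 FPKM in Con and 550.12, 472.45 and 361.03 FPKM in DRB, with no overlap (difference 0.98, limma adjusted p = 0.107). Spop was at 18.67, 12.03 and 13.34 FPKM in Con and 14.99, 9.11 and 9.51 FPKM in DRB. The summed cluster was thus above Spop in all 6 libraries, 36.97 FPKM at the lowest against 18.67 at the highest. That sets a sum of 9 genes against 1 gene. Tdpoz5, the highest member in Con by mean, was above Spop in Con replicates 1 and 3. In Con replicate 2 it was below, at 9.57 FPKM against 12.03.

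**Figure D5:**
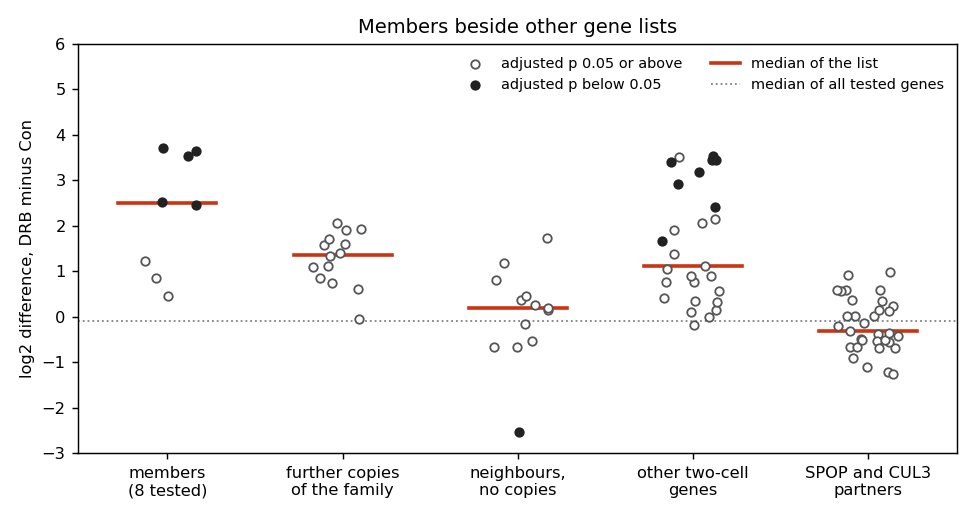
Fitted log2 difference, DRB minus Con, of each tested gene in 5 lists, filled where the adjusted p was below 0.05, with the median of each list and, dotted, that of all tested genes. Medians were 2.50 for the members, 1.37 for further copies, 0.19 for other neighbours, 1.13 for other two-cell genes and -0.32 for ligase partners.

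The genes whose pattern over the 6 libraries was most like the summed cluster were found by the root-mean-square difference of centred log2(FPKM + 1) values, among 11885 tested genes that are not members. Spesp1, an acrosomal sperm protein, was first with a difference of 0.18, at 1.93, 0.73 and 0.53 FPKM in Con and 15.55, 15.99 and 7.43 FPKM in DRB. D13Ertd608e followed with 0.22, at 27.43, 10.79 and 7.49 FPKM in Con and 79.01, 88.73 and 63.20 FPKM in DRB. F730035P03Rik was next with 0.24, at 7.09, 3.32 and 2.20 FPKM in Con and 21.89, 24.57 and 16.27 FPKM in DRB. Gm4565 and Gm4513 tied at 0.30 and had the same values, 11.72, 4.42 and 8.84 FPKM in Con and 60.75, 63.44 and 33.21 FPKM in DRB. Their likeness to the cluster follows from how they were picked, and all 5 were highest in DRB replicate 2, whereas the cluster sum was highest in DRB replicate 1.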

How the data were processed

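Smart-Seq2 libraries of mouse 4-cell embryos, 3 Con and 3 DRB, were sequenced as paired 150-base reads, per the labels' protocols. Reads were processed with cutadapt 1.16, STAR and mm10, per the submitters' processing notes. Per the file headers, the authors deposited FPKM for 55335 gene identifiers in each library. Neither the quantifier, the annotation release nor the handling of reads shared by copies is named in the labels. FPKM scales each library to its own total, so values are relative within a library.

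Members were matched by symbol. Identifiers were matched without version to GENCODE M21 (55154 of 55335) for positions, exons and sequences, and the RefSeq tables of GRCm38.p6 gave promoter windows and names. Genes with at least 1 FPKM in at least 3 libraries were fitted with limma 3.58.1 in R 4.3.3 on log2(FPKM + 1) with a mean-variance trend and Benjamini-Hochberg adjustment over all tested genes, called at 0.05. Fold changes on this scale understate those of low genes. Copies were found with blastn 2.17.0 (at least 300 aligned bases and 75% identity), and pairwise identities with Biopython 1.88. The fit was tested on simulated data. A motif was searched on both strands of each promoter window.

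The members and gene lists, and the exon split, were chosen with earlier results of these data known. Named besides members were up to 4 called genes with the largest difference per list (or else the 2 most abundant tested), the nearest coding genes, further copies and the 5 most alike patterns. Of the 16 further copies, those with particular values were singled out after these were seen. Alternatives were another pseudocount, other filters, other scalings, a replicate block, a stricter threshold and leaving out each library.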

Additional observations from a re-analysis of the deposited data

How the results depend on the processing

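The summed cluster kept its direction in every alternative run. Its log2 ratio was 2.31 to 3.00 without 1 library, 2.63 with median-of-ratios scaling, 2.69 with mitochondrial genes left out and 2.25 without Gm10696. It was 1.12 with the genes named Tdpoz only, and, chosen after seeing the data, 3.55 with the 2-exon members, 0.76 with the 1-exon members and 1.90 with further copies added. The count of called genes was less stable. Over all genes, 295 were called, against 164 with a pseudocount of 0.1, 6 with no filter, 50 at an adjusted p below 0.01 and 47 to 220 without 1 library. Members called were 5, against 1 with no filter, 3 at 0.01 and 3 to 5 without 1 library. Neighbours called were 1, against 0 with no filter, 0 at 0.01, 2 with median-of-ratios scaling and 0 to 1 without 1 library. Other two-cell genes called were 8, against 0 with no filter, 3 at 0.01 and 2 to 8 without 1 library (2 without DRB replicate 1). Ligase partners called were 0 in every fit. The cause of these changes was not tested. With no filter 27554 genes were tested, against 11893. Of 60 comparisons of the 5 called members with an alternative, 14 lost the call. Of 35 for the 3 tested members not called, 1 changed sign, that of Tdpoz2, which ranged from -0.27 (without Con replicate 3) to 1.30 (without Con replicate 1). Leaving out mitochondrial genes moved the median difference of all tested genes from -0.09 to 0.02, and that of the members from 2.50 to 2.62. With the replicate block 171 genes and 4 members were called, Tdpoz1 being lost. Libraries with the same number did not deviate together (r = -0.0468, 0.053 and -0.0512), so the numbers were not taken as pairs. Depth limits Tdpoz3, with an estimated 0 to 64 fragments per library.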
